A study of Mus musculus with 5 samples.

Results

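The genes described here encode the enzymes and the 2 transcription factors that make fatty acids and triglycerides in liver. They were 35 genes chosen by name for their place in these routes, with earlier results of these data known. Each was read on its probe set with the highest mean. Of the 35, 34 had a probe set among the 18193 genes measured, and 32 were above the detection floor (an intensity of 8.41) on all 5 arrays. G6pdx was not analysed here. Fads3, a fatty acid desaturase family gene (4.88 to 5.22), and Mogat1, a monoacylglycerol acyltransferase gene (4.13 to 4.39), stayed under the floor on every array, and counts below are over the other 32.

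The arrays came from a follow-up of an expression quantitative trait locus. The samples were livers of NZW/LacJ, RIIIS/J, FVB/NJ, BALB/CByJ and C57BL/6J mice, all untreated inbred males of 10 weeks. Each strain was represented by 1 array hybridised with RNA pooled from 3 animals. Since a strain had only 1 array, no difference could be tested against a spread between replicates, and no p-value is given. Differences below describe these 5 arrays, and the number of arrays limits their precision.

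De novo synthesis begins with citrate, which leaves the mitochondrion and is split to acetyl-CoA in the cytosol. Acetyl-CoA carboxylase and fatty acid synthase build palmitate from it with reducing power from NADPH, and elongases and desaturases then lengthen and unsaturate the chain. Acyl chains are joined to glycerol phosphate by a series of acyltransferases, with the lipins removing the phosphate before the last acyl group is added. In liver the insulin-responsive factor SREBP-1 and the carbohydrate-responsive factor ChREBP drive many of these genes.

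The reference start regions of 3 members with different strain patterns are shown because Fasn encodes the synthase itself, Elovl6 was apart in NZW/LacJ and Slc25a1 was apart in RIIIS/J. The sequences are from RefSeq, build GRCm38.p6, which is the C57BL/6J genome, and each runs from 250 bases before to 50 bases after the gene start. Capitals mark the letters CCAAT or CACGTG on either strand. Fasn lies at chr11:120824498-120824797 on the minus strand, Elovl6 at chr3:129532136-129532435 on the plus strand and Slc25a1 at chr16:17928170-17928469 on the minus strand.
Fasn: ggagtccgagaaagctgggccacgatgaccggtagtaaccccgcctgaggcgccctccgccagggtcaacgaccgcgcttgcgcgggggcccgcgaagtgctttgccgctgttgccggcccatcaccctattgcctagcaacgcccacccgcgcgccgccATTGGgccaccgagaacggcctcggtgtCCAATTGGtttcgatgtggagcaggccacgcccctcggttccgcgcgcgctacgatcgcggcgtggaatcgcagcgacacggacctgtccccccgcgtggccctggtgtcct
Elovl6: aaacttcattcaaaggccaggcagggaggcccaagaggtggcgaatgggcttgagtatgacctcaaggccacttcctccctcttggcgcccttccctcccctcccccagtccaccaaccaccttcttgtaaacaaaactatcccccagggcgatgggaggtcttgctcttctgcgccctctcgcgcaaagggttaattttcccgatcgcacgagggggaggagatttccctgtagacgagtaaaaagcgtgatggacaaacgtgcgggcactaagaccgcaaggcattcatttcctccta
Slc25a1: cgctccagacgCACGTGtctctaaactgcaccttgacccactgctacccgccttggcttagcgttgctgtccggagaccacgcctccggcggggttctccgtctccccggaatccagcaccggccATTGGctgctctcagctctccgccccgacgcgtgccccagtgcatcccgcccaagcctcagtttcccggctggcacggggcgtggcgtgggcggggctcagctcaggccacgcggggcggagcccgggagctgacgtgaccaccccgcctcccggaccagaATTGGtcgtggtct

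Windows of this kind were found for 28 of the 35 members, 39 windows in all because some genes have several starts. The CCAAT box was present in 19 of the 39 member windows (48.7%), against 37.4% of all 32851 windows. The Fasn window held 3 matches, 2 of which overlap, and the Slc25a1 window held 2. The E-box CACGTG, the core of the element that ChREBP and the USF factors bind, was in 4 member windows (10.3%), those of Slc25a1, Elovl5, Lpin2 and Mlxipl, against 7.15% of all windows. A sterol regulatory element written as TCACNCCAC was in 1 member window, of Mlxipl (2.56%), against 1.24% of all windows. The consensus LXR direct repeat, the element of the liver X receptors, read without mismatch, was in 0 member windows and 0.0152% of all windows. The E-box and CCAAT matches did not overlap in the windows shown, both strands were searched, and a match in these letters is a description only. Sequences of the other strains were not used here.

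Across the 5 arrays these 32 synthesis genes spread widely, and most often NZW/LacJ stood at the bottom and C57BL/6J at the top. Of 21 other detected genes of these routes, read further below, NZW/LacJ was lowest for 4 and C57BL/6J highest for 5. The fold between the highest and the lowest strain had a median of 2.15 over the members, against 1.59 over all 11920 detected genes. It was at least 2-fold for 19 of the 32 members, where the background over all detected genes was 30.8%. NZW/LacJ was the lowest strain for 17 members (53.1%), against a background of 16.8%. C57BL/6J was the highest strain for 14 members (43.8%), against a background of 19.5%. RIIIS/J was highest for 7 (background 17.5%) and lowest for 4 (22.5%), FVB/NJ highest for 4 (23.6%) and lowest for 3 (26.3%), and BALB/CByJ highest for 3 (21.5%) and lowest for 5 (12.2%). NZW/LacJ was highest for 4 members (background 16.9%) and C57BL/6J lowest for 3 (background 11.4%). All 32 members were above the floor on every array, against 10369 of the 11920 detected genes. Raising values to the floor can narrow ranges and make ties, so the members and the background are not fully alike.

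On the log2 scale, the difference of each strain from the mean of the other 4 had a median over the members of -0.35 in NZW/LacJ, 0.073 in RIIIS/J, 0.13 in FVB/NJ, 0.00042 in BALB/CByJ and 0.26 in C57BL/6J. The same medians over all detected genes lay between -0.024 and 0.0015. The number of members with a positive difference was 9 in NZW/LacJ (background 45.6%), 18 in RIIIS/J (43.3%), 21 in FVB/NJ (45.2%), 17 in BALB/CByJ (50.4%) and 25 in C57BL/6J (50.1%). The strains share each other's values in these means, so the low median of NZW/LacJ and the high median of C57BL/6J are not separate facts. For scale, 2 probe sets of 1 gene differed in this measure by a median of 0.22 over 4574 genes.

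**Figure D1:**
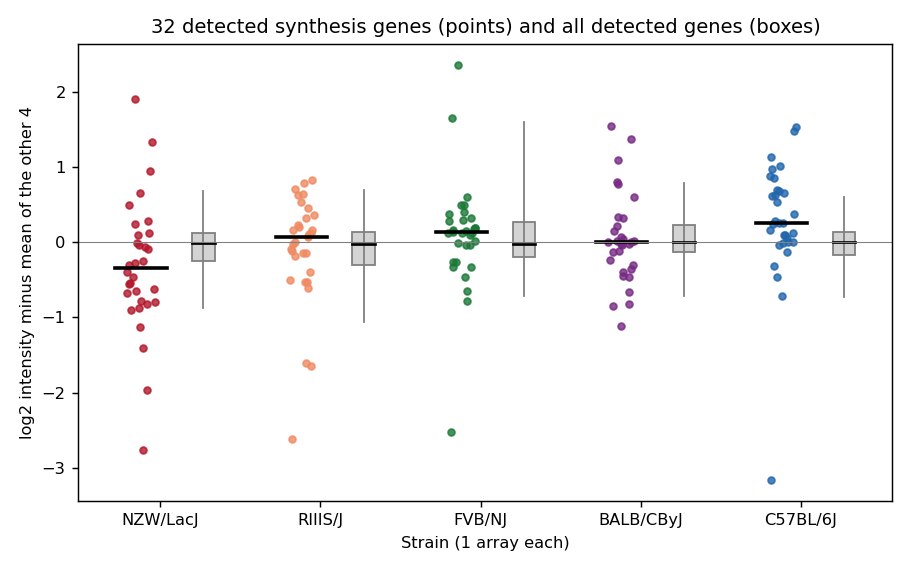
Log2 intensity of each strain minus the mean of the other 4, for the 32 detected synthesis genes (points, with the median as a bar) beside all 11920 detected genes (boxes, quartiles with the median, whiskers from the 5th to the 95th percentile). The member medians run from -0.35 in NZW/LacJ to 0.26 in C57BL/6J, while the medians of all genes lie between -0.024 and 0.0015.

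A gene counts here as apart where 1 strain was separated from its nearest neighbour, above or below, by a factor of 2 or more. By this rule 7 of the 32 members were apart in some strain, where the background was 12.3%. Those lower than every other strain were Aacs, Fads2 and Elovl6 in NZW/LacJ (background 0.738%), Slc25a1 and Lpin1 in RIIIS/J (1.72%) and Gpat3 in C57BL/6J (0.419%). Scd2 was the 1 member of the 32 apart on the high side, in FVB/NJ (background 5.98%). BALB/CByJ had 0 members apart in either direction (backgrounds 0.814% high and 0.436% low). The other directions also had 0 members, namely high in NZW/LacJ (0.78%), RIIIS/J (0.998%) and C57BL/6J (0.495%) and low in FVB/NJ (0.545%).

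**Figure D2:**
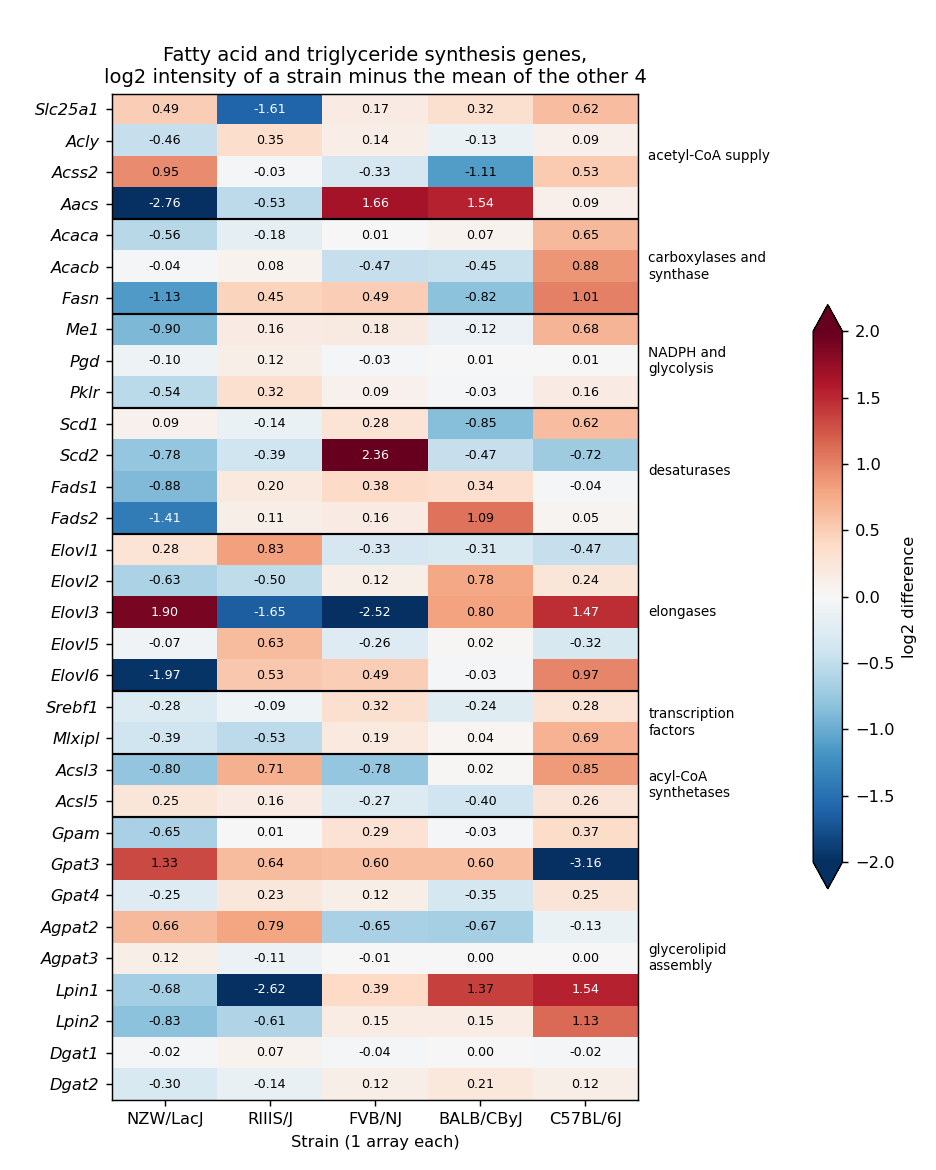
Log2 intensity of each strain minus the mean of the other 4 for the 32 detected members (rows, grouped by role) on the 5 arrays (columns), with each value printed and the colours ending at 2 in either direction. The NZW/LacJ column is below 0 for 23 of 32 members and reaches -2.76 for Aacs, and the C57BL/6J column is above 0 for 25.

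Of the marker lists read alongside, 11 hepatocyte genes were above the floor on every array, with summed intensities of 393957 in NZW/LacJ, 417702 in RIIIS/J, 362353 in FVB/NJ, 378123 in BALB/CByJ and 388572 in C57BL/6J. The FVB/NJ array carried B cell signal, with 5 of 5 measured markers (Cd79a, Cd79b, Ms4a1, Ighm and Cd74) apart on the high side and a sum of 28895 against 316 to 947 in the other strains. It also carried erythroid signal, with 3 of 4 detected markers (Slc4a1, Hbb-b2 and Bpgm) apart and a sum of 6282 against 1269 to 3742. The fourth, Alas2, was highest in NZW/LacJ (3444 against 2861 in FVB/NJ), and Epb42 was under the floor on every array. The RIIIS/J array carried signal of exocrine pancreas, with 4 of 4 acinar genes (Cpa1, Cela2a, Ctrb1 and Cel) apart and a sum of 31390 against 23.8 to 34.5. Sums for Kupffer cells (1761 to 3723), stellate cells (3365 to 4715), endothelium (1890.0 to 2316), adipocytes (270 to 321) and cholangiocytes (46.1 to 69.3) were closer, although Marco and Timd4 of the Kupffer list and Pdgfrb and Acta2 of the stellate list were apart on the high side in FVB/NJ. Of the 4 measured fat cell genes, Fabp4 (228 to 269.7) and Lipe (31.955 to 44.3) were above the floor on every array, Adipoq (4.43 to 9.20) in FVB/NJ alone and Lep (5.61 to 5.85) on none. Of the 4 measured bile duct genes, Sox9 (21.8 to 43.8), Epcam (10.6 to 12.5) and Krt19 (8.95 to 9.32) were above the floor on every array and Krt7 (4.76 to 5.32) on none. In whole liver, fewer cells of a type and less RNA per cell cannot be told apart. A comparison without the FVB/NJ and RIIIS/J arrays was chosen after the data were seen. In it NZW/LacJ was the lowest of 3 strains for 20 members and C57BL/6J the highest for 17. Leaving out strains can only keep or raise such counts. No share over all detected genes was taken for 3 strains, and nothing more is read from these counts.

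Signals of the genes for cytosolic acetyl-CoA supply differed among strains gene by gene. Slc25a1, the mitochondrial citrate carrier, read 929.6 in RIIIS/J against 2974 in NZW/LacJ, 2491 in FVB/NJ, 2711 in BALB/CByJ and 3196 in C57BL/6J. RIIIS/J thus stood 2.68-fold below the nearest strain while the other 4 lay close together, on the gene's single probe set. Acly, the ATP citrate lyase that splits the exported citrate, went the other way, with 5539 in RIIIS/J against 3530.0 in NZW/LacJ, 4919 in FVB/NJ, 4229 in BALB/CByJ and 4795 in C57BL/6J. On the second most intense Acly probe set the same strains were highest and lowest over a wider span, with 4538 in RIIIS/J against 1723 in NZW/LacJ. The acinar signal on the RIIIS/J array is given above, and its part in these values was not tested.

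Acss2, which makes acetyl-CoA from acetate, read 8725 in NZW/LacJ, 5067 in RIIIS/J, 4279 in FVB/NJ, 2777 in BALB/CByJ and 6905 in C57BL/6J. It was among the few members with NZW/LacJ on top, and BALB/CByJ was lowest at 1.54-fold below the nearest strain. A further Acss2 probe set also had BALB/CByJ lowest (1761) but C57BL/6J highest (5278, against 4960.4 in NZW/LacJ). The third, dim probe set had NZW/LacJ lowest (12.2) and FVB/NJ highest (21.4). Aacs, which activates the ketone body acetoacetate for lipid synthesis, read 77.9 in NZW/LacJ against 269 in RIIIS/J, 902 in FVB/NJ, 845 in BALB/CByJ and 379.6 in C57BL/6J. The strains spanned 11.6-fold for Aacs, with FVB/NJ and BALB/CByJ at the top and NZW/LacJ 3.45-fold below the nearest strain. The other detected Aacs probe set gave the same highest and lowest strains, at 868 in FVB/NJ and 86.1 in NZW/LacJ.

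Of the carboxylase and synthase genes, 3 of 3 were highest in C57BL/6J, against 19.5% of all detected genes. Acaca, the cytosolic acetyl-CoA carboxylase gene, read 604 in C57BL/6J against 309 in NZW/LacJ, 379 in RIIIS/J, 423 in FVB/NJ and 438 in BALB/CByJ. Acacb, whose product makes the malonyl-CoA that restrains mitochondrial fatty acid import, read 389 in C57BL/6J against 233 in NZW/LacJ, 249 in RIIIS/J, 184 in FVB/NJ and 186 in BALB/CByJ. Fasn read 829 in NZW/LacJ, 1991 in RIIIS/J, 2037 in FVB/NJ, 986 in BALB/CByJ and 2725 in C57BL/6J. For Fasn the strains fell into a low pair, NZW/LacJ and BALB/CByJ, and 3 higher strains, so that no strain was apart by the rule although the range was 3.29-fold.

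Genes for NADPH and glycolytic carbon were lowest in NZW/LacJ for 3 of 3 (16.8% of all detected genes), although Pgd was only 1.03-fold below the next strain. Me1, the cytosolic malic enzyme that yields NADPH, read 1989 in NZW/LacJ against 3581 in RIIIS/J, 3631 in FVB/NJ, 3064 in BALB/CByJ and 4785 in C57BL/6J. Its other probe set placed the same strains at the ends, with 525 in NZW/LacJ and 1927 in C57BL/6J. Pklr, the liver pyruvate kinase gene and a classic ChREBP target, read 429 in NZW/LacJ against 689.9 in RIIIS/J, 608 in FVB/NJ, 568 in BALB/CByJ and 633 in C57BL/6J. Of 2 further Pklr probe sets, the brighter also had NZW/LacJ lowest (300.0 against 371 to 495) and the dimmer had RIIIS/J lowest (51.6 against 72.8 to 93.4). Pgd, an enzyme of the pentose phosphate route, was nearly level at 1236 to 1389. Its other 3 probe sets also spanned little (1.02-fold to 1.16-fold), and NZW/LacJ was lowest on 2 of them and FVB/NJ on the third (456 in FVB/NJ against 461.9 in NZW/LacJ).

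The desaturases shared no single order of strains. Scd1, the main liver stearoyl-CoA desaturase, which makes oleate, read 15420.0 in BALB/CByJ against 25929 in NZW/LacJ, 22835 in RIIIS/J, 28785 in FVB/NJ and 34728 in C57BL/6J. BALB/CByJ was lowest and C57BL/6J highest on both Scd1 probe sets, and the span was 2.25-fold on the brighter and 6.33-fold on the dimmer, which read 620.3 in BALB/CByJ and 3929 in C57BL/6J. Scd2, a desaturase of the same family that is little expressed in adult hepatocytes, read 242 in FVB/NJ against 42.5 in NZW/LacJ, 52.6 in RIIIS/J, 50.5 in BALB/CByJ and 44.0 in C57BL/6J. FVB/NJ was 4.602-fold above the nearest strain for Scd2, on the array with the B cell and erythroid signal given above, and the part of those cells in the value was not tested. Averaged with its other 2 probe sets, which were under the floor on every array, Scd2 was no longer apart (log2 gap 0.73 in place of 2.20).

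Fads1 and Fads2 encode the front-end desaturases of polyunsaturated fatty acid synthesis, and both were lowest in NZW/LacJ. Fads1 read 3736 in NZW/LacJ against 6796 in RIIIS/J, 7512 in FVB/NJ, 7346 in BALB/CByJ and 5968 in C57BL/6J. Fads2 read 1307 in NZW/LacJ against 3028 in RIIIS/J, 3108 in FVB/NJ, 5207 in BALB/CByJ and 2931 in C57BL/6J. On this probe set RIIIS/J, FVB/NJ and C57BL/6J were nearly level, NZW/LacJ lay 2.24-fold below the nearest of them and BALB/CByJ lay 1.68-fold above. On the next brightest, NZW/LacJ (1072) was less than 2-fold below RIIIS/J (1485). On the dimmest, RIIIS/J (520.0) lay near BALB/CByJ (566), above FVB/NJ (285), C57BL/6J (281) and NZW/LacJ (142). All 3 Fads2 probe sets had NZW/LacJ lowest and BALB/CByJ highest, although with the mean of the probe sets the gap of NZW/LacJ to the nearest strain was -0.95 on the log2 scale, just under the 2-fold limit.

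**Figure D3:**
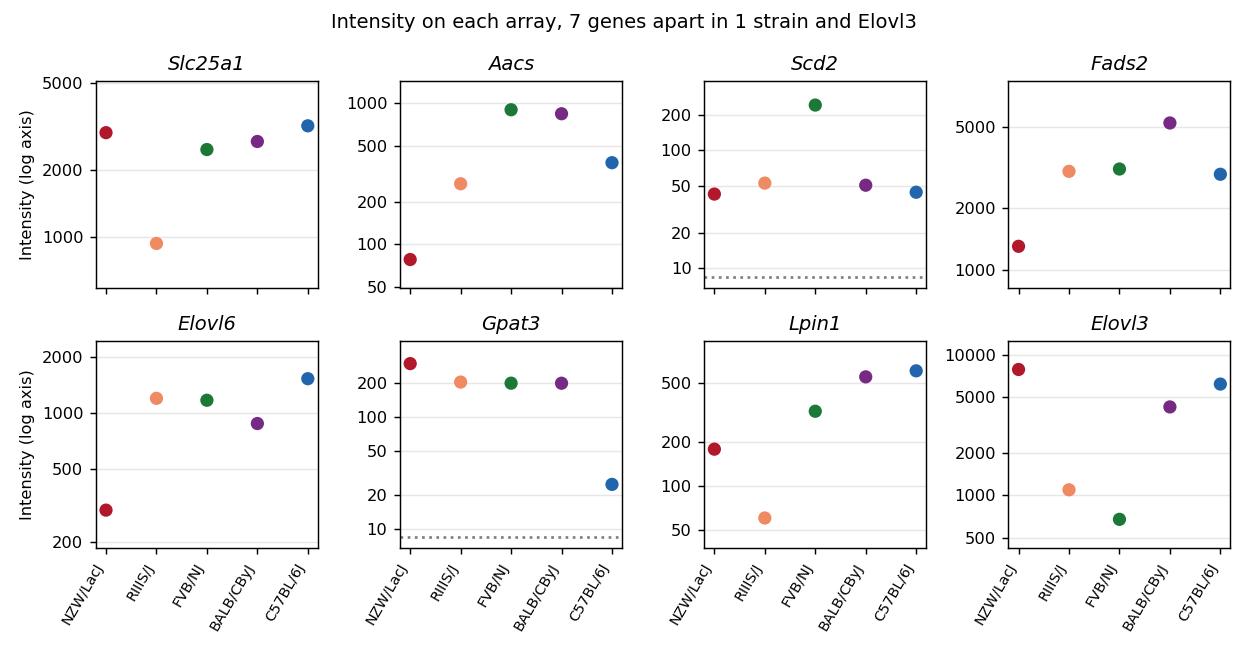
Intensity (log axis) on the 5 arrays for the 7 members apart in 1 strain and for Elovl3, 1 point per strain, with the detection floor dotted where it falls in range. Aacs, Fads2 and Elovl6 are lowest in NZW/LacJ, Slc25a1 and Lpin1 in RIIIS/J and Gpat3 in C57BL/6J, Scd2 is highest in FVB/NJ, and Elovl3 is low in both RIIIS/J and FVB/NJ.

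The elongases had no order of strains in common. Elovl6, which extends palmitate to stearate, read 299 in NZW/LacJ against 1195 in RIIIS/J, 1167 in FVB/NJ, 874 in BALB/CByJ and 1525 in C57BL/6J. NZW/LacJ was 2.93-fold below the nearest strain, and all 3 probe sets had NZW/LacJ lowest and C57BL/6J highest. Elovl3, an elongase of saturated very long chains whose liver expression is known to be rhythmic and male-biased, read 7878 in NZW/LacJ, 1096 in RIIIS/J, 676 in FVB/NJ, 4264 in BALB/CByJ and 6203 in C57BL/6J. The order for Elovl3 thus put NZW/LacJ on top and FVB/NJ at the bottom, 11.7-fold apart, with RIIIS/J and FVB/NJ far below the other 3.

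Elovl1 and Elovl5 were highest in RIIIS/J. Elovl5, which elongates polyunsaturated chains, read 17683 in RIIIS/J against 12013 in NZW/LacJ, 10816 in FVB/NJ, 12628 in BALB/CByJ and 10487 in C57BL/6J. Elovl1, an elongase of very long saturated chains, read 1482 in RIIIS/J against 1095 in NZW/LacJ, 779.7 in FVB/NJ, 791 in BALB/CByJ and 723 in C57BL/6J. All 4 detected Elovl1 probe sets and both Elovl5 probe sets had RIIIS/J highest, on the array with acinar signal, whose part was not tested. Elovl2, which acts late in the synthesis of docosahexaenoic acid, read 14355 in BALB/CByJ against 6583 in NZW/LacJ, 7053 in RIIIS/J, 9935 in FVB/NJ and 10622 in C57BL/6J, so that BALB/CByJ was highest for both Elovl2 and Fads2.

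The 2 transcription factor genes spanned less than the member median of 2.15-fold. Srebf1, which encodes SREBP-1, read 2102 in NZW/LacJ, 2332 in RIIIS/J, 2929 in FVB/NJ, 2146 in BALB/CByJ and 2862 in C57BL/6J, a range of 1.39-fold. NZW/LacJ and BALB/CByJ, the pair with low Fasn, also had the lowest Srebf1 values, only 1.02-fold apart from each other. RIIIS/J, which was not in that pair, was close above them for Srebf1, and a link between Srebf1 and Fasn was not tested. Mlxipl, which encodes ChREBP, read 1248 in NZW/LacJ, 1158 in RIIIS/J, 1728 in FVB/NJ, 1591 in BALB/CByJ and 2276 in C57BL/6J. C57BL/6J was highest by 1.32-fold over the nearest strain for Mlxipl, and the range was 1.97-fold.

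Acyl-CoA synthetases activate fatty acids for esterification or oxidation. Acsl3, a form found on the endoplasmic reticulum and lipid droplets, read 121 in NZW/LacJ, 279 in RIIIS/J, 122 in FVB/NJ, 190.2 in BALB/CByJ and 302 in C57BL/6J. Its values split into a low pair, NZW/LacJ and FVB/NJ, and a high pair, RIIIS/J and C57BL/6J, on a probe set that may read several transcripts by its name. A second, dim Acsl3 probe set spanned only 20.3 to 26.2. Acsl5 was closer across strains, at 6371 in NZW/LacJ, 6067 in RIIIS/J, 4794 in FVB/NJ, 4450.0 in BALB/CByJ and 6416 in C57BL/6J.

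The first acylation of glycerol phosphate was covered by Gpam, Gpat3 and Gpat4. Gpam, the mitochondrial acyltransferase and an SREBP-1 target, read 3645 in NZW/LacJ against 5245 in RIIIS/J, 6152 in FVB/NJ, 5149 in BALB/CByJ and 6427 in C57BL/6J, and both probe sets had NZW/LacJ lowest and C57BL/6J highest. Gpat3, a form of the endoplasmic reticulum, read 24.97 in C57BL/6J against 301 in NZW/LacJ, 206 in RIIIS/J, 201 in FVB/NJ and 201 in BALB/CByJ. C57BL/6J was 8.05-fold below the nearest strain for Gpat3, the widest gap of any member, on the gene's single probe set. The C57BL/6J value was low enough for the scale to matter, since it lay under the alternative floor of 27.4, and with a pseudocount of 16 the log2 gap was -2.40 in place of -3.01. Gpat4, the other endoplasmic reticulum form, read 549 in NZW/LacJ, 718 in RIIIS/J, 678 in FVB/NJ, 519 in BALB/CByJ and 728 in C57BL/6J, a range of 1.401-fold.

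Agpat2, which adds the next acyl group and is the gene of a human lipodystrophy, read 6370.3 in NZW/LacJ and 6861 in RIIIS/J, against 3089.9 in FVB/NJ, 3062 in BALB/CByJ and 4127 in C57BL/6J. NZW/LacJ and RIIIS/J were thus together on the high side, on the gene's single probe set. Agpat3, a related acyltransferase, was close to level at 878 to 998, although its 3 dimmer probe sets spanned 1.55-fold to 1.76-fold and did not place the same strain lowest. Dgat1, which encodes an acyltransferase of the last step, read 279 to 296. Dgat2, the main diacylglycerol acyltransferase for newly made fat in liver, read 2433 in NZW/LacJ, 2659 in RIIIS/J, 3068 in FVB/NJ, 3233 in BALB/CByJ and 3068 in C57BL/6J. The second Dgat2 probe set spanned 1.71-fold, again with BALB/CByJ highest (1964) but with RIIIS/J lowest (1147, against 1329 in NZW/LacJ). On the probe sets used, Pgd (1.12-fold), Agpat3 (1.14-fold) and Dgat1 (1.06-fold) had the narrowest ranges of the 32 members.

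The lipins dephosphorylate phosphatidic acid to diacylglycerol, and both members were low in NZW/LacJ and RIIIS/J. Lpin1 read 178 in NZW/LacJ and 60.6 in RIIIS/J, against 322 in FVB/NJ, 552 in BALB/CByJ and 606 in C57BL/6J. RIIIS/J was 2.94-fold below the nearest strain for Lpin1, and the range of the 5 strains was 10.0-fold. Without the NZW/LacJ array, its nearest neighbour, the log2 gap of RIIIS/J was -2.41 in place of -1.55. The other Lpin1 probe set gave 135 in NZW/LacJ and 88.3 in RIIIS/J, against 217 in FVB/NJ, 252 in BALB/CByJ and 433 in C57BL/6J, with the same lowest and highest strain. Lpin2 read 1015 in NZW/LacJ and 1148 in RIIIS/J, against 1750.1 in FVB/NJ, 1748 in BALB/CByJ and 3009 in C57BL/6J.

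On its most intense probe set Lpin2 was lowest in NZW/LacJ, but on the 3 others RIIIS/J was lowest. The dimmer sets spanned up to 6.77-fold, with 105 in RIIIS/J, 193 in NZW/LacJ and 711 in C57BL/6J on the widest. All 4 Lpin2 probe sets had both NZW/LacJ and RIIIS/J below the other 3 strains. Over all members, NZW/LacJ and RIIIS/J were both below the other 3 strains for 7 of 32 (Aacs, Acaca, Elovl2, Mlxipl, Lpin1, Lpin2 and Dgat2), where the background was 15.2%. They were both above the other 3 for Elovl1, Gpat3 and Agpat2, where the background was 10.3%. These groupings of strains were chosen after the values were seen, and nothing more is read from them.

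**Figure D4:**
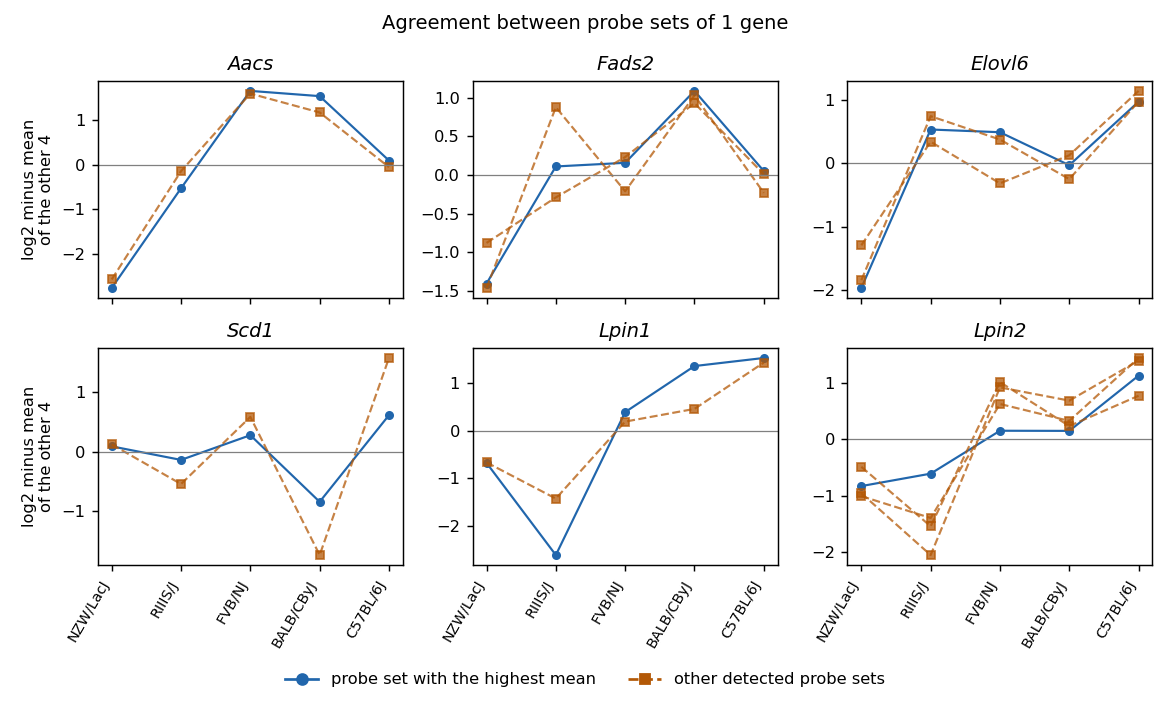
Log2 intensity of each strain minus the mean of the other 4 for each detected probe set of 6 members, with the most intense probe set as solid lines and circles and the others as dashed lines and squares. The probe sets of Aacs, Fads2 and Elovl6 place NZW/LacJ lowest, those of Scd1 place BALB/CByJ lowest, and those of Lpin2 differ in whether NZW/LacJ or RIIIS/J is lowest.

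Agreement between the probe sets of a gene was partial. Of the 20 members with at least 2 detected probe sets, 10 had the same lowest strain on all of them, 12 the same highest strain and 7 both. The 7 were Aacs, Me1, Scd1, Fads2, Elovl6, Gpam and Lpin1. The count takes in probe sets just above the floor, such as a second Acaca probe set at 11.1 to 11.7. The remaining 12 members, among them Slc25a1, Fasn, Scd2, Elovl3 and Gpat3, rest on 1 detected probe set. Strain differences in sequence under the array probes were not examined, and their part in any of these values was not tested.

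Lpin1 and Elovl3 are known to follow the daily rhythm in liver, so clock genes were read beside them. The 12 clock genes summed to 4555 in NZW/LacJ and 2506 in RIIIS/J, against 11223 in FVB/NJ, 17474 in BALB/CByJ and 13013 in C57BL/6J. Dbp, a rhythmic transcription factor gene, read 1023 in NZW/LacJ and 75.5 in RIIIS/J, against 4940 in FVB/NJ, 8951 in BALB/CByJ and 6439 in C57BL/6J. Per3 and Nr1d1, both clock repressor genes, were likewise lowest in RIIIS/J at 25.5 and 26.2, against 50.6 to 277 and 95.4 to 314. Arntl, which encodes the activator BMAL and peaks in the opposite phase, read 68.1 in NZW/LacJ and 156 in RIIIS/J, against 13.7 to 14.1 in the other strains. Clock itself read 723 in NZW/LacJ and 756 in RIIIS/J, against 214 to 287 in the others. Of the remaining clock genes, Tef and Nr1d2 were also apart on the low side in RIIIS/J, Npas2 was apart on the high side in NZW/LacJ, and Ciart on the high side in BALB/CByJ. Noct was apart on both sides, at 24.5 in NZW/LacJ and 1077 in BALB/CByJ against 255 to 479 in the other strains. The low lipin values and the low Dbp and Per3 values thus fell in the same strains, while Elovl3 was highest in NZW/LacJ. Tef, Ciart, Nr1d2, Per1 and Per2 were also lower in both NZW/LacJ and RIIIS/J than in the other strains. Nr1d1 was not, at 136 in NZW/LacJ against 95.4 in FVB/NJ, nor was Noct, at 277 in RIIIS/J against 255 in C57BL/6J. Time of collection was not given in the sources used here, and its part in these values was not tested.

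**Figure D5:**
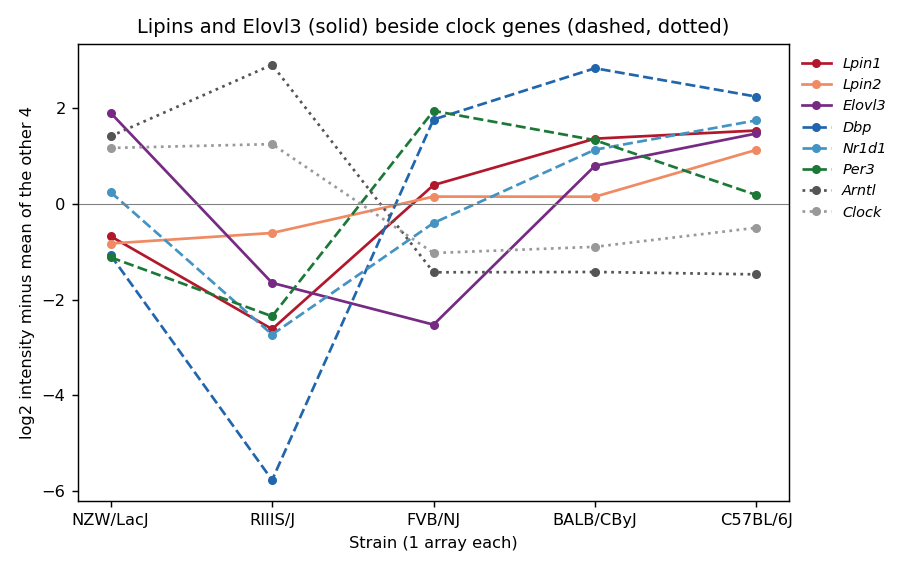
Log2 intensity of each strain minus the mean of the other 4 for Lpin1, Lpin2 and Elovl3 (solid lines) and for the clock genes Dbp, Nr1d1 and Per3 (dashed) and Arntl and Clock (dotted). Lpin1 and the dashed genes are lowest in RIIIS/J, where Arntl is highest, and Elovl3 is lowest in FVB/NJ and highest in NZW/LacJ.

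Genes that report the fasting and insulin state had medians of -0.32 in NZW/LacJ, -0.22 in RIIIS/J, 0.0081 in FVB/NJ, 0.35 in BALB/CByJ and 0.21 in C57BL/6J. Of 7 detected members of that list, Igfbp1, an insulin-repressed gene, was apart in C57BL/6J (788 against 114 to 260), and Pdk4, a fasting-induced kinase gene, was apart in RIIIS/J (277 against 50.8 to 80.0). Pck1, the gluconeogenic carboxykinase gene, read 12143 in NZW/LacJ, 8196 in RIIIS/J, 15077 in FVB/NJ, 26963 in BALB/CByJ and 16061 in C57BL/6J. Feeding before collection was not given in the sources used here, and its part in the synthesis genes was not tested.

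A list of 29 other genes of the same routes and 17 of their regulators was read for context. Of the other synthesis genes 21 were detected and 1 was apart, Agpat1, an acyltransferase gene, at 26.995 in FVB/NJ against 8.60 to 8.64 in the other strains, which is just above the floor. Their median difference from the other strains was -0.14 in NZW/LacJ, -0.033 in RIIIS/J, -0.13 in FVB/NJ, 0.06 in BALB/CByJ and 0.079 in C57BL/6J, and the number of the 21 lowest in a strain was 4 in NZW/LacJ (background 16.8%), 5 in RIIIS/J (22.5%), 7 in FVB/NJ (26.3%), 2 in BALB/CByJ (12.2%) and 1 in C57BL/6J (11.4%). The number highest was 2 in NZW/LacJ (background 16.9%), 6 in RIIIS/J (17.5%), 4 in FVB/NJ (23.6%), 4 in BALB/CByJ (21.5%) and 5 in C57BL/6J (19.5%). Thrsp, a lipogenic gene responsive to thyroid hormone and carbohydrate, read 5797 in NZW/LacJ, 7587 in RIIIS/J, 22965 in FVB/NJ, 16156 in BALB/CByJ and 13900 in C57BL/6J. Its low strains were NZW/LacJ and RIIIS/J, and FVB/NJ was highest. Tkt, the transketolase gene (10123 to 14474), Idh1 (9142 to 11358) and Hacd3 (5139 to 9046) were the other abundant genes of the list.

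Of the regulators 16 were detected and 0 were apart, and their medians lay between -0.12 in FVB/NJ and 0.099 in BALB/CByJ. Insig1 and Insig2 encode the proteins that hold the SREBP escort Scap in the endoplasmic reticulum, and they ran in opposite directions in FVB/NJ. Insig1, itself an SREBP target, read 3817 in NZW/LacJ, 3808 in RIIIS/J, 8856 in FVB/NJ, 5156 in BALB/CByJ and 4702 in C57BL/6J. Insig2 read 6776 in NZW/LacJ, 3656 in RIIIS/J, 1263 in FVB/NJ, 2721 in BALB/CByJ and 2479 in C57BL/6J. FVB/NJ thus had the highest Insig1 and the lowest Insig2, and NZW/LacJ the highest Insig2. Scap read 1441 in NZW/LacJ, 1690.4 in RIIIS/J, 1576 in FVB/NJ, 2218 in BALB/CByJ and 2279 in C57BL/6J.

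Set strain against strain, the count of members differing by at least 2-fold was highest between NZW/LacJ and both FVB/NJ and C57BL/6J, at 9 each. In NZW/LacJ 8 members were lower than in C57BL/6J, namely Aacs, Fasn, Me1, Fads2, Elovl6, Acsl3, Lpin1 and Lpin2, where the background was 4.17%. Gpat3 was the 1 member higher in NZW/LacJ than in C57BL/6J (background 3.54%), and the median difference over the members was -0.44 on the log2 scale. Against FVB/NJ, NZW/LacJ was lower for Aacs, Fasn, Scd2, Fads1, Fads2 and Elovl6 (10.7%) and higher for Acss2, Elovl3 and Agpat2 (4.4%). Against BALB/CByJ, NZW/LacJ was lower for Aacs, Fads2, Elovl2, Elovl6 and Lpin1 (5.45%) and higher for Acss2 and Agpat2 (3.41%). Against RIIIS/J, NZW/LacJ was lower for Aacs, Fasn, Fads2, Elovl6 and Acsl3 (3.35%) and higher for Slc25a1, Elovl3 and Lpin1 (4.39%). Aacs, Fads2 and Elovl6 were therefore low in NZW/LacJ in each of its 4 pairings, as the rule for apart requires.

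The 6 pairings without NZW/LacJ had between 3 and 7 such members each. RIIIS/J had Slc25a1, Elovl3, Lpin1 and Lpin2 lower than C57BL/6J (background 5.78%) and Elovl1 and Gpat3 higher (3.83%). Slc25a1, Aacs, Scd2 and Lpin1 were lower in RIIIS/J than in FVB/NJ (12.5%), and Acsl3 and Agpat2 were higher (4.81%). Compared with BALB/CByJ, RIIIS/J was lower for Slc25a1, Aacs, Elovl2, Elovl3 and Lpin1 (7.61%) and higher for Fasn and Agpat2 (3.8%). FVB/NJ and BALB/CByJ differed in 3 members, the fewest of the 10 pairings, with Fasn and Scd2 higher in FVB/NJ (8.37%) and Elovl3 lower (3.49%). FVB/NJ had Aacs, Scd2 and Gpat3 higher than C57BL/6J (8.53%) and Acacb, Elovl3 and Acsl3 lower (2.78%). In BALB/CByJ, Acss2, Acacb, Fasn and Scd1 were lower than in C57BL/6J (2.18%), while Aacs and Gpat3 were higher (3.01%). These comparisons share arrays and are not independent.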

How the data were processed

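Liver RNA of 5 inbred strains was measured on 1 array each. The deposited intensity values are linear, and GCOS and GCRMA are named as the tools behind them in the submitters' processing notes. No version or setting of either was found in those notes or in the labels.

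Of 45101 probe sets, those with 1 gene by the platform annotation were kept, and each gene took the probe set with the highest mean. Values under a floor, the 95th percentile of 86 chemosensory receptor probe sets, were raised to it, and log2 was taken. A strain was called highest or lowest only without a tie. Exactly equal values on at least 2 arrays occurred for 32.8% of detected genes and 3 members. Members were the listed synthesis genes, all named. From the lists of other synthesis genes, regulators, fasting, clock and cell type markers, genes apart in a strain and up to 4 abundant others could be named. Lep and Krt7 fall outside that rule and were named after their values were seen. Alternatives were another floor or none, a pseudocount, averaged or filtered probe sets, 3 other normalizations, the median as comparator, 2 other fold thresholds and leaving out arrays. Members and lists were chosen with earlier results of these data known. The steps were checked on simulated data. Python 3.11.15, numpy 2.4.6 and pandas 2.3.3 were used.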

Additional observations from a re-analysis of the deposited data

How the results depend on the processing

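No paired analysis was possible because only 1 hybridisation represents a strain, so no replicate numbers link arrays. The medians over the members kept within the spread between probe sets (0.22) of their reported values under every alternative run. That spread is for single genes and exceeds the reported medians of RIIIS/J, FVB/NJ and BALB/CByJ, so it is a loose limit for a median. The other fold thresholds and the absence of a floor could not change these medians. They ranged from -0.42 to -0.26 in NZW/LacJ, -0.047 to 0.18 in RIIIS/J, -0.023 to 0.21 in FVB/NJ, -0.12 to 0.013 in BALB/CByJ and 0.21 to 0.34 in C57BL/6J, so the signs of the middle 3 are not settled. Centring on genes detected on all arrays shifted these differences by -0.12 in FVB/NJ to 0.11 in RIIIS/J. Members lowest in NZW/LacJ (17 reported) numbered 13 to 20, with 13 on centring on genes detected on all arrays. Members highest in C57BL/6J (14 reported) numbered 14 to 17. The upper values came without FVB/NJ and RIIIS/J, and leaving out arrays can only keep or raise such counts.

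Counts moved by over 1.5 times as follows. With a gene's probe sets averaged, 2 members were highest in NZW/LacJ (4 reported), 5 in BALB/CByJ (3 reported) and 0 were apart high in FVB/NJ (1 reported). Without probe sets ending in _s_at, _x_at or _a_at, 4 were highest in RIIIS/J (7 reported). Centring on genes detected on all arrays gave 2 highest and 8 lowest in FVB/NJ (4 and 3 reported), and centring on hepatocyte markers 1 lowest there. At 1.5-fold, members apart were 5 low in NZW/LacJ (3 reported), 1 low in FVB/NJ, 1 high and 1 low in BALB/CByJ and 2 high in C57BL/6J (0 reported for each of these 4). At 4-fold there were 0 low in NZW/LacJ and 0 low in RIIIS/J.

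Leaving out 1 array at a time, members lowest ranged from 4 to 9 in RIIIS/J, 5 to 6 in FVB/NJ (3 reported, 6 without BALB/CByJ), 5 to 12 in BALB/CByJ and 3 to 6 in C57BL/6J, the upper values of 9, 12 and 6 coming without NZW/LacJ. Members highest ranged from 7 to 11 in RIIIS/J and 4 to 10 in FVB/NJ (11 and 10 without C57BL/6J) and 3 to 5 in BALB/CByJ (5 without RIIIS/J, FVB/NJ or C57BL/6J). Apart calls ranged from 1 to 2 high (2 without BALB/CByJ) and 0 to 1 low (1 without RIIIS/J) in FVB/NJ. They ranged from 0 to 1 high (1 without FVB/NJ) and 0 to 1 low (1 without NZW/LacJ) in BALB/CByJ. Without both FVB/NJ and RIIIS/J, an added alternative, BALB/CByJ had 1 member apart high, 1 apart low, 8 highest and 8 lowest, and C57BL/6J had 1 apart high. The Gpat3 gap kept its call in 16 of 16 alternatives. Aacs and Elovl6 kept theirs in 15 of 16, Slc25a1 and Lpin1 in 14 of 15, each ending only at 4-fold, Scd2 in 14 of 15, ending at 0.73 with the mean of probe sets, and Fads2 in 14 of 16, ending at 4-fold and with probe sets averaged. The causes of these changes were not tested. Leaving out other arrays, using no floor, the median as comparator and the 1.5-fold threshold could not end a call. The counts of kept calls include those runs. Single arrays and dim probe sets near the floor limit the values.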
